A study of Mus musculus with 16 samples.

Results

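The genes described here are 8 major histocompatibility complex (MHC) class I heavy chains, their shared light chain and the nuclear factor that drives their transcription. They were chosen by symbol as H2-K1, H2-D1, H2-Q4, H2-Q6, H2-Q7, H2-T22, H2-T23, H2-M3, B2m and Nlrc5, and all 10 were found among the 55414 gene identifiers of the count tables. RNA-Seq was carried out on chondrocyte-enriched cells from the epiphysis of newborn mice on a C57BL/6 background, with 4 libraries in each of 4 groups. Control (wild type) cells and cells heterozygous for the global Notch2tm1.1Ecan mutation, which gives a NOTCH2 protein lacking its degradation (PEST) domain, were each exposed for 6 h to PBS vehicle or to TNFα at 50 ng/ml, with the sexes pooled. The question was whether the mutation changes the response of chondrocytes to TNFα. The labels state the removal of serum for the TNFα groups only, whereas the study describes both exposures as serum free, and on the labels' reading TNFα and serum removal cannot be told apart. The Notch2tm1.1Ecan allele is a change within the coding sequence, so gene counts do not check it.

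MHC class I molecules display peptides from inside the cell to CD8 T cells and are carried by nearly all nucleated cells. A heavy chain pairs with β2-microglobulin, the product of B2m, and is loaded with peptide in the endoplasmic reticulum. The heavy chain promoters share an upstream element bound by Rel family factors, an element bound by interferon regulatory factors and an SXY module through which NLRC5 acts. TNFα and interferons are both known to raise class I expression. In GRCm39 the 8 heavy chain genes lie in the H2 complex of chromosome 17, from the start of H2-K1 at 34214987 to the end of H2-M3 at 37585384, with B2m on chromosome 2 at 121977957 to 121983594 and Nlrc5 on chromosome 8 at 95160984 to 95253900.

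In the promoters listed by RefSeq (GRCm38.p6), 9 of the 10 genes had an entry, and the 250 bases before the most upstream start site were searched on both strands. A κB motif was found in 8 of the 9, against 3.74% of 27025 promoters in the table. The interferon regulatory factor core GAANNGAAA was found in 6 of the 9, against 6.35% of all promoters, and GAAANNGAAA, the core of the interferon-stimulated response element, in the other 3, against 3.05% of all. TGACG, the letters of the X2 box core, was found in 7 of the 9 and in 17.8% of all. CCAAT, the letters of the Y box core, was found in 9 of the 9 and in 34.5% of all. Counted from the start site, the TGACG match of H2-Q4 (-73 to -69) followed a CCAAT match (-79 to -75). That of H2-T22 (-22 to -18) followed all its CCAAT matches. H2-T23 alone had no CCAAT match on the minus strand. Whether these matches belong to an X2 or a Y box was not tested. In H2-M3 a CCAAT match overlapped the κB match. These motifs were chosen with results of these data known, and a match is a match of letters only. The stretches below run from 20 bases before the first to 20 bases after the last match to the κB motif or to either interferon core, with those matches in capitals. They are shown so that the letters of the κB and interferon elements can be compared between genes whose TNFα responses differed in size. They lie at chr17:34000409-34000478 for H2-K1, chr17:36042904-36042975 for H2-T22 and chr17:36032796-36032845 for H2-T23 on the minus strand and, on the plus strand, at chr17:35262903-35262972 for H2-D1, chr17:35379423-35379492 for H2-Q4, chr17:35424657-35424726 for H2-Q6, chr17:35439002-35439070 for H2-Q7, chr17:37270088-37270161 for H2-M3 and chr2:122147528-122147590 for B2m.
H2-K1: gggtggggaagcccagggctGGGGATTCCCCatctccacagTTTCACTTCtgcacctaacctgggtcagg
H2-D1: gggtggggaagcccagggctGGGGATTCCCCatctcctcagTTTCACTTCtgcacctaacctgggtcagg
H2-Q4: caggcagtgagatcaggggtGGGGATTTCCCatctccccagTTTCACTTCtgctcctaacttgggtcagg
H2-Q6: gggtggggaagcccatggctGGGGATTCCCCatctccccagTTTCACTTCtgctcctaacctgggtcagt
H2-Q7: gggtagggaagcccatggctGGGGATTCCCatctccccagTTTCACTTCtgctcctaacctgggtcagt
H2-M3: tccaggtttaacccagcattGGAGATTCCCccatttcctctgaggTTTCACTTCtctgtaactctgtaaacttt
H2-T22: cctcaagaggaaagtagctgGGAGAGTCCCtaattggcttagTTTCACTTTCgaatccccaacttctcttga
H2-T23: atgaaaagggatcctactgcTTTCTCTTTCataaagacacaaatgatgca
B2m: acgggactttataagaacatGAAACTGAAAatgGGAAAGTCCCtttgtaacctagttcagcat
In the H2-K1, H2-D1, H2-Q4, H2-Q6, H2-Q7, H2-T22 and H2-M3 promoters the κB match preceded the interferon core, which was read on the minus strand of the promoter. In B2m the interferon core came first, and H2-T23 held an interferon core and no κB match in this window.

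Libraries held 3439726 to 44237300 counts assigned to genes, with a median of 17062419. The library of Notch2tm1.1Ecan cells with TNFα, replicate 4, was the smallest. The first principal component held 44.02% of the variance and ran from vehicle to TNFα. Control vehicle replicate 4 had a score of -22.1 on it against -74.5 to -68.7 for the other vehicle libraries, and control TNFα replicate 4 a score of 49.6 against 65.0 to 71.1 for the other TNFα libraries. On the second component, with 11.2% of the variance, Notch2tm1.1Ecan TNFα replicate 4 lay at -122.1 and the other 15 libraries at -15.6 to 26.4. What sets these 3 libraries apart was not tested. Calls among the 10 genes that change without one of them are given both ways, and changes in the gene lists are given for many but not all results. Without Notch2tm1.1Ecan TNFα replicate 4, all 10 genes were called higher with TNFα in Notch2tm1.1Ecan cells, by 2.94-fold (B2m) to 86.4-fold (H2-Q6), and 0 were called between the genotypes. The 10 chondrocyte markers, among them Col2a1, Acan and Sox9, were present in every group and summed to 18530 to 49860 CPM (counts scaled to a common library size with TMM factors). Of the 6 T and NK cell markers, Cd3e, Cd3g, Cd8a and Ncr1 were at 0 in all 16 libraries and Klrb1c held at most 2 counts. Cd4 held at most 9 counts and was not called in any comparison. Its means in control and Notch2tm1.1Ecan cells were 0.0896 and 0.204 CPM with vehicle and 0.0865 and 0.311 CPM with TNFα. In bulk RNA, fewer cells of a type and less RNA per cell cannot be told apart.

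TNFα raised every one of the 10 genes in both genotypes. In control cells all 10 were called higher at an adjusted p under 0.05 in edgeR's quasi-likelihood test, where 23.3% of the 19338 genes tested were called higher. All 10 also passed a log2 fold change of 1, as did 8.47% of genes, and for all 10 the TNFα libraries lay above every vehicle library, as for 21.5% of genes. In Notch2tm1.1Ecan cells the same 3 counts were 10, 10 and 10, against 22.6%, 9.2% and 19.8% of 19633 genes. The median log2 fold change of the 10 genes was 2.67 in control and 3.02 in Notch2tm1.1Ecan cells, and that of all genes was 0.04 and 0.03.

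**Figure D1:**
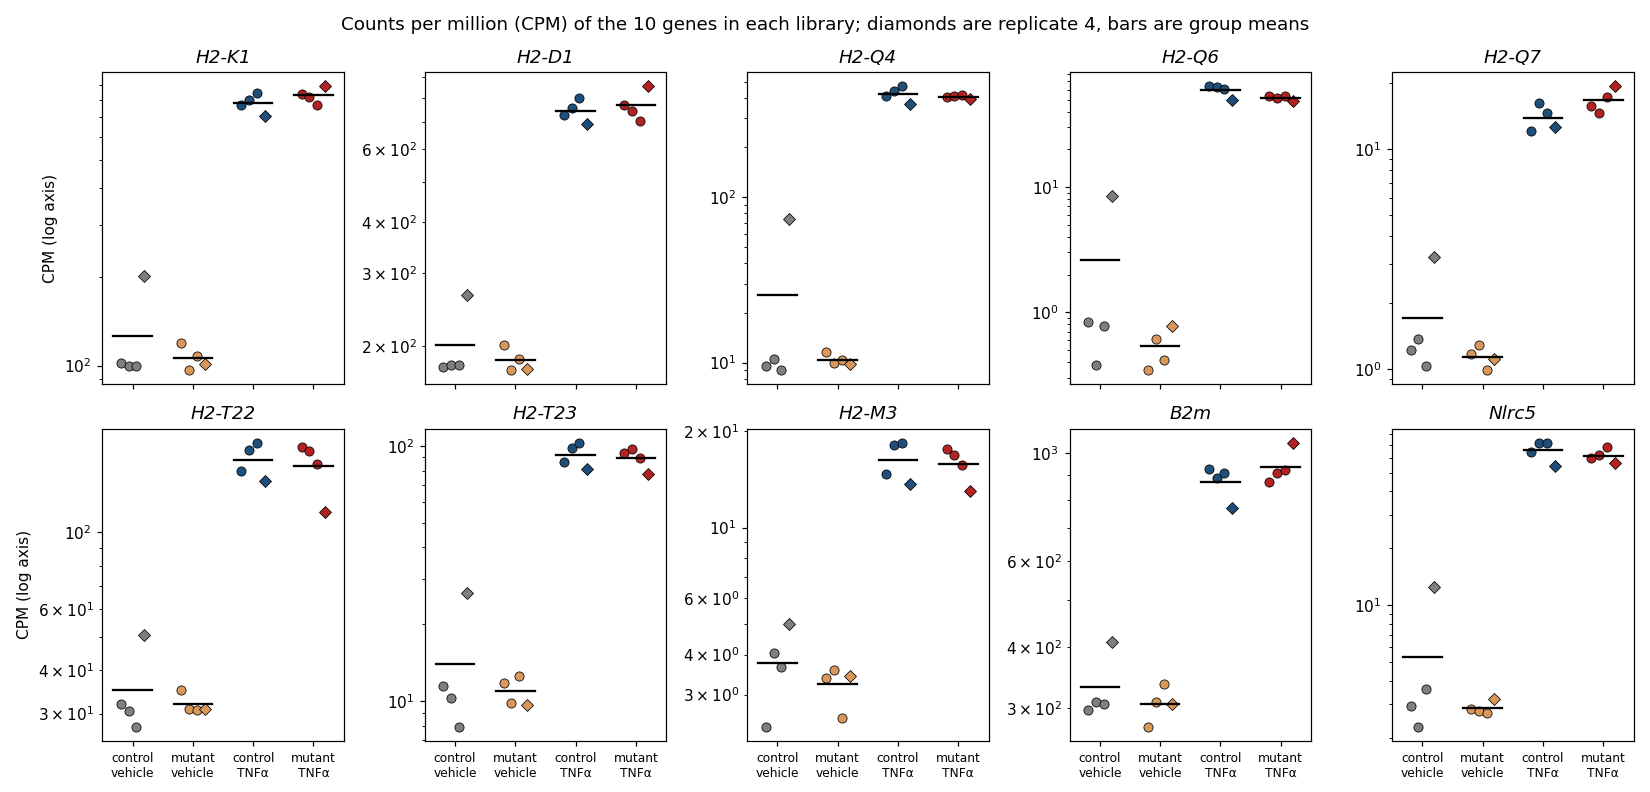
Each panel shows one gene, with the normalized level of each library in CPM on a log axis, 4 libraries a group, the group mean as a bar and replicate 4 as a diamond. The TNFα libraries of both genotypes sit together above the vehicle libraries, and control vehicle replicate 4 is the highest vehicle library in every panel.

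H2-K1 and H2-D1 encode the classical heavy chains that present peptide to CD8 T cells. In control cells H2-K1 was at 101.8, 100, 99.67 and 201.8 CPM with vehicle and at 768.4, 800.9, 842.6 and 705.4 CPM with TNFα. In Notch2tm1.1Ecan cells it was at 119.2, 96.52, 108.0 and 101.6 CPM with vehicle and at 837.2, 814.9, 768.3 and 890.3 CPM with TNFα. All vehicle libraries but control replicate 4 lay within a narrow band, and the TNFα libraries of the genotypes overlapped. The increase was 6.20-fold in control cells (95% confidence interval 3.80 to 10.1, adjusted p = 0.000398, edgeR) and 7.80-fold in Notch2tm1.1Ecan cells (7.05 to 8.62, adjusted p = 1.04e-22, edgeR).

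H2-D1 started higher and rose less. Its vehicle libraries stood at 177.5, 179.5, 179.7 and 265.7 CPM in control cells and at 200.7, 174.4, 186.0 and 175.7 CPM in Notch2tm1.1Ecan cells. With TNFα they stood at 727.6, 755.1, 800.9 and 693.0 CPM in control cells and at 769.0, 745.8, 705.5 and 855.8 CPM in Notch2tm1.1Ecan cells. The fold increase was 3.72 (2.83 to 4.90) and 4.18 (3.79 to 4.60), respectively. For both classical genes the TNFα and vehicle ranges were well apart in each genotype.

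The H2-Q genes encode Qa molecules, non-classical class I chains of limited polymorphism, and among them were the steepest increases of the set. H2-Q4, which encodes Qb-1, was at 9.506, 10.58, 9.008 and 73.62 CPM in control cells with vehicle and at 407.4, 436.2, 470.4 and 366.5 CPM with TNFα. In Notch2tm1.1Ecan cells it was at 11.57, 9.904, 10.32 and 9.825 CPM with vehicle and at 404.4, 406.9, 416.9 and 390.4 CPM with TNFα. Control vehicle replicate 4 was thus 7.59 times the mean of the other 3 control vehicle libraries, yet below every TNFα library. The fold increase of H2-Q4 was 16.2 in control cells (3.86 to 68.0, adjusted p = 0.00892, edgeR), 43.6 without control vehicle replicate 4 (37.6 to 50.5) and 39.3 in Notch2tm1.1Ecan cells (35.3 to 43.7).

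H2-Q6 was close to the floor with vehicle, at 15, 5, 12 and 143 counts in the control libraries and at 5, 12, 8 and 34 counts in the Notch2tm1.1Ecan libraries. With TNFα it held 813, 1157, 1045 and 941 counts in control cells and 812, 872, 908 and 175 counts in Notch2tm1.1Ecan cells, the last in the smallest library. Scaled to library size, the TNFα libraries ran from 49.18 to 64.06 CPM in control and from 48.28 to 53.75 CPM in Notch2tm1.1Ecan cells, against a highest vehicle value of 8.511 CPM in control replicate 4. H2-Q6 had the largest fold increase of the 10 genes in each genotype, 21.7 in control cells (7.08 to 66.7), 86.1 without control vehicle replicate 4 (66.5 to 111.5) and 85.2 in Notch2tm1.1Ecan cells (70.1 to 103.4). H2-Q7, which encodes a Qa-2 antigen, was at 1.03 to 3.214 CPM in control and 0.9856 to 1.283 CPM in Notch2tm1.1Ecan cells with vehicle, and at 12.06 to 16.13 and 14.62 to 19.31 CPM with TNFα. It rose 8.03-fold (11.6-fold without control vehicle replicate 4) and 14.4-fold.

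H2-Q6 and H2-Q7 are near copies of their neighbours, and this limits what their counts hold. Of the 75-base windows within the exons of H2-Q6 in GRCm39, 2.87% occurred once in the genome, and of those of H2-Q7, 3.71%. The share was 75.7% for H2-Q4, 80.6% for H2-T22, 84.6% for H2-T23 and 92.3% for both H2-K1 and H2-D1, and it was 100% for H2-M3, B2m and Nlrc5. Reads with more than one placement, 3.77% to 4.30% of a library, were not assigned to a gene, so the levels of H2-Q6 and H2-Q7 rest on few positions and how reads were split between paralogs is uncertain. Long noncoding genes on the opposite strand share 29.8% of the exonic bases of H2-T22, 26.8% of H2-K1, 24.2% of H2-D1, 16.6% of H2-Q4, 11.9% of H2-T23, 7.28% of H2-Q6, 5.81% of H2-Q7 and 0.92% of Nlrc5, and none of H2-M3 or B2m. The strand setting of the counting is not given in the sources used here, so reads from these stretches may not be told apart by strand. A930015D03Rik, opposite H2-T22 and H2-T23, was at 0.427 ± 0.150 CPM (SD, n = 4) with vehicle and 0.902 ± 0.362 CPM with TNFα in control cells. Gm11131, opposite H2-Q4, went from 0.347 ± 0.488 CPM (SD, n = 4) with vehicle to 4.54 ± 0.399 CPM with TNFα in control cells, far below H2-Q4 itself.

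H2-T22, H2-T23 and H2-M3 are non-classical chains. H2-T22 is a ligand of γδ T cells, H2-T23 encodes Qa-1, which is read by the NKG2 receptors of natural killer cells, and H2-M3 presents formylated peptides. H2-T22 ran from 27.48 to 50.59 CPM in control and 30.66 to 35.2 CPM in Notch2tm1.1Ecan cells with vehicle, and from 141.2 to 181.5 and 114.8 to 176.6 CPM with TNFα. H2-T23 ran from 7.915 to 26.42 and 9.664 to 12.55 CPM with vehicle, and from 80.96 to 102.8 and 77.53 to 97.59 CPM with TNFα. H2-M3 ran from 2.377 to 4.999 and 2.542 to 3.592 CPM with vehicle, and from 13.64 to 18.42 and 12.97 to 17.61 CPM with TNFα. No TNFα library of these genes reached down to a vehicle library. The fold increases in control and Notch2tm1.1Ecan cells were 4.60 and 4.95 for H2-T22, 6.53 and 8.39 for H2-T23 and 4.35 and 4.97 for H2-M3. H2-M3 had the smallest adjusted p of the 10 genes in control cells, 2.07e-07 (edgeR). Without control vehicle replicate 4 the smallest was that of H2-K1, 1.07e-20, with H2-M3 at 3.75e-10 (edgeR).

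B2m, the light chain without which most heavy chains do not reach the surface, was the most abundant of the 10 transcripts and changed least. It was at 298.2, 309.5, 306.7 and 409.6 CPM in control cells with vehicle and at 924.5, 886.4, 910.0 and 771.9 CPM with TNFα. In Notch2tm1.1Ecan cells it was at 274.9, 308.9, 336.2 and 305.6 CPM with vehicle and at 871.4, 907.7, 921.2 and 1048 CPM with TNFα. The increase was 2.65-fold in control cells (2.13 to 3.30, adjusted p = 0.000137, edgeR) and 3.06-fold in Notch2tm1.1Ecan cells (2.77 to 3.37, adjusted p = 3.87e-17, edgeR), the smallest of the set in each genotype.

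Nlrc5 encodes the transactivator of class I genes, a NOD-like receptor family protein that enters the nucleus and joins the factors on the SXY module. Its level was 2.929, 2.284, 3.603 and 12.56 CPM in control cells with vehicle and 64.85, 71.99, 72.34 and 54.78 CPM with TNFα. In Notch2tm1.1Ecan cells it was 2.824, 2.771, 2.697 and 3.221 CPM with vehicle and 59.91, 62.51, 68.43 and 56.84 CPM with TNFα. The groups with and without TNFα did not overlap, and control vehicle replicate 4 lay between them at 4.27 times the mean of the other 3. Nlrc5 rose 12.1-fold in control cells (5.39 to 27.1, adjusted p = 0.00103, edgeR), 22.2-fold without control vehicle replicate 4 (17.8 to 27.8) and 21.2-fold in Notch2tm1.1Ecan cells (18.5 to 24.4, adjusted p = 2.58e-23, edgeR). The long noncoding gene 9330175E14Rik on its opposite strand was at 0.322 ± 0.296 CPM with vehicle and 4.46 ± 1.51 CPM with TNFα in control cells (SD, n = 4).

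**Figure D2:**
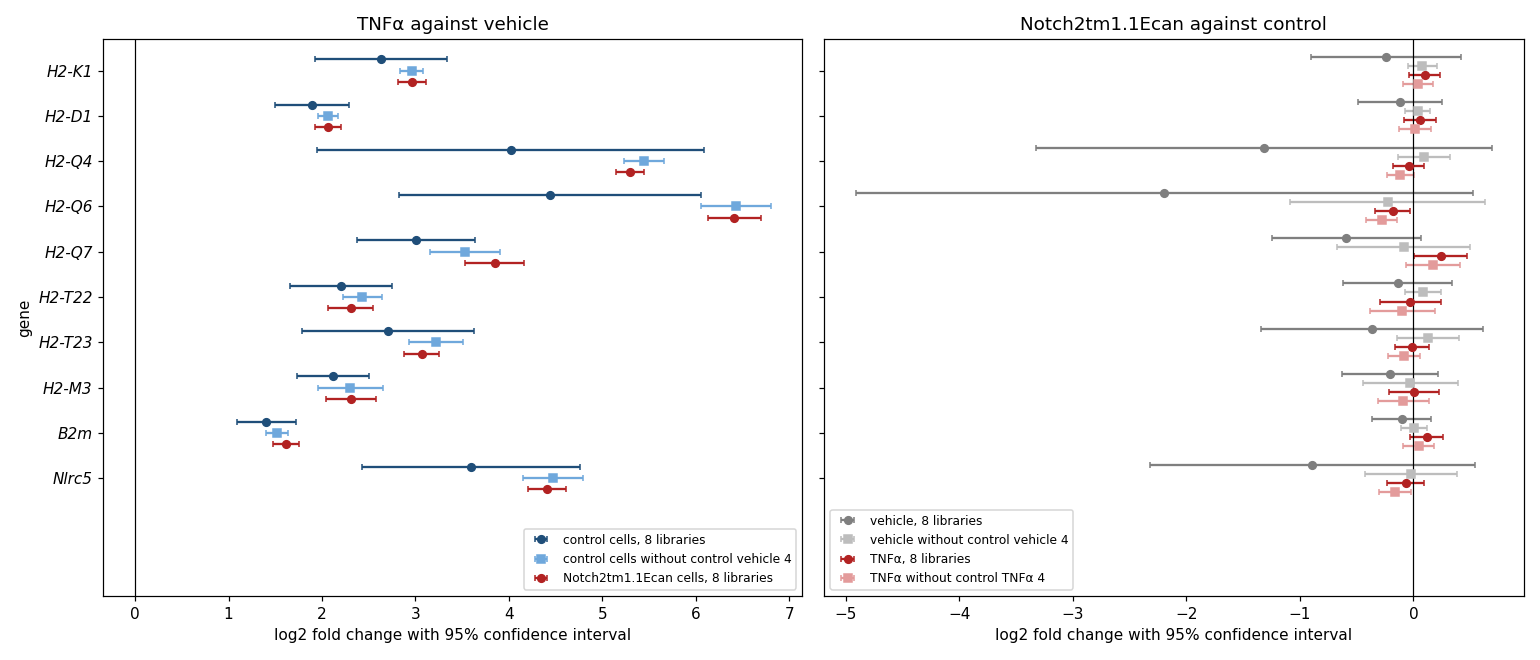
The left panel gives the log2 fold change of each gene with TNFα against vehicle and the right panel that of Notch2tm1.1Ecan against control cells, as points with 95% confidence intervals from edgeR, with and without replicate 4 of the control group concerned. All intervals on the left lie above 0, and the control intervals narrow and move toward those of Notch2tm1.1Ecan cells without control vehicle replicate 4.

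Control vehicle replicate 4 was higher than the other 3 control vehicle libraries for all 10 genes, by 1.34 times for B2m to 12.9 times for H2-Q6. The genes with the steepest TNFα increases, H2-Q6, H2-Q4 and Nlrc5, were those in which it stood farthest above the others. Leaving it out raised the control fold changes of H2-K1, H2-D1, H2-T22, H2-T23, H2-M3 and B2m to 7.78, 4.17, 5.39, 9.32, 4.94 and 2.87. The 11 macrophage markers summed to 67.4 to 74.6 CPM over all 4 control vehicle libraries, of which Lyz2 alone held 38.9 CPM on average. Whether cell content sets this library apart was not tested.

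Compared per length, as RPKM (CPM divided by the exon length in kilobases), the order of mean levels in control cells with vehicle was B2m at 157.2, H2-D1 at 67.1, H2-K1 at 39.5, H2-T22 at 10.3, H2-Q4 at 7.31, H2-T23 at 4.09, H2-M3 at 2.07, H2-Q6 at 0.767, Nlrc5 at 0.629 and H2-Q7 at 0.400 RPKM. Only B2m against H2-D1 and H2-K1 against H2-T22 were neighbours in this order whose ranges did not overlap. The lower part of the order changed when control vehicle replicate 4 was left out, to H2-T23 at 2.88, H2-Q4 at 2.76, H2-M3 at 1.84, Nlrc5 at 0.346, H2-Q7 at 0.282 and H2-Q6 at 0.193 RPKM. Among all neighbours in that order, only H2-T23 with H2-Q4, Nlrc5 with H2-Q7 and H2-Q7 with H2-Q6 then overlapped. In Notch2tm1.1Ecan cells with vehicle only H2-T23 and H2-Q4, at 3.20 and 2.96 RPKM, overlapped among neighbours in the order. With TNFα the order in control cells was B2m at 414.6, H2-D1 at 248.7, H2-K1 at 244.7, H2-Q4 at 119.6, H2-T22 at 47.1, H2-T23 at 26.9, H2-Q6 at 17.4, H2-M3 at 8.90, Nlrc5 at 7.77 and H2-Q7 at 3.24 RPKM. H2-D1 and H2-K1 overlapped, as did H2-M3 and Nlrc5, and the same pairs overlapped in Notch2tm1.1Ecan cells with TNFα. H2-Q4 moved above H2-T22 and H2-Q6 above H2-M3 in both genotypes. Lengths are those of the GENCODE exons, so the levels of H2-Q6 and H2-Q7, with few unique positions, are not comparable with the rest.

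The make-up of the heavy chain transcripts changed with TNFα. H2-D1 made up 52.5 ± 5.68% (SD, n = 4) of the summed RPKM of the 8 heavy chain genes in control cells with vehicle and 34.8 ± 0.746% with TNFα. In Notch2tm1.1Ecan cells its share was 54.7 ± 0.389% and 35.1 ± 1.76%. Without control vehicle replicate 4 the vehicle share in control cells was 55.3 ± 0.839% (SD, n = 3) for H2-D1 and 2.55 ± 0.188% for H2-Q4. With all libraries, H2-K1 made up 29.8 ± 1.15% and 34.2 ± 0.269% in control cells, and H2-Q4 went from 4.52 ± 3.93% to 16.7 ± 0.430%, or from 2.63 ± 0.0405% to 15.8 ± 0.998% in Notch2tm1.1Ecan cells. The ratio of the summed heavy chain RPKM to that of B2m was 0.733 to 0.766 in 3 control libraries with vehicle and 1.04 in replicate 4, and it was 0.710 to 0.948 in Notch2tm1.1Ecan cells with vehicle. With TNFα it was 1.59 to 1.81 in control and 1.52 to 1.80 in Notch2tm1.1Ecan cells. For the H2-D1 share, the H2-Q4 share and this ratio, TNFα and vehicle libraries did not overlap in either genotype. Together the 10 genes took 0.0618% to 0.103% of the counts with vehicle and 0.288% to 0.370% with TNFα.

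**Figure D3:**
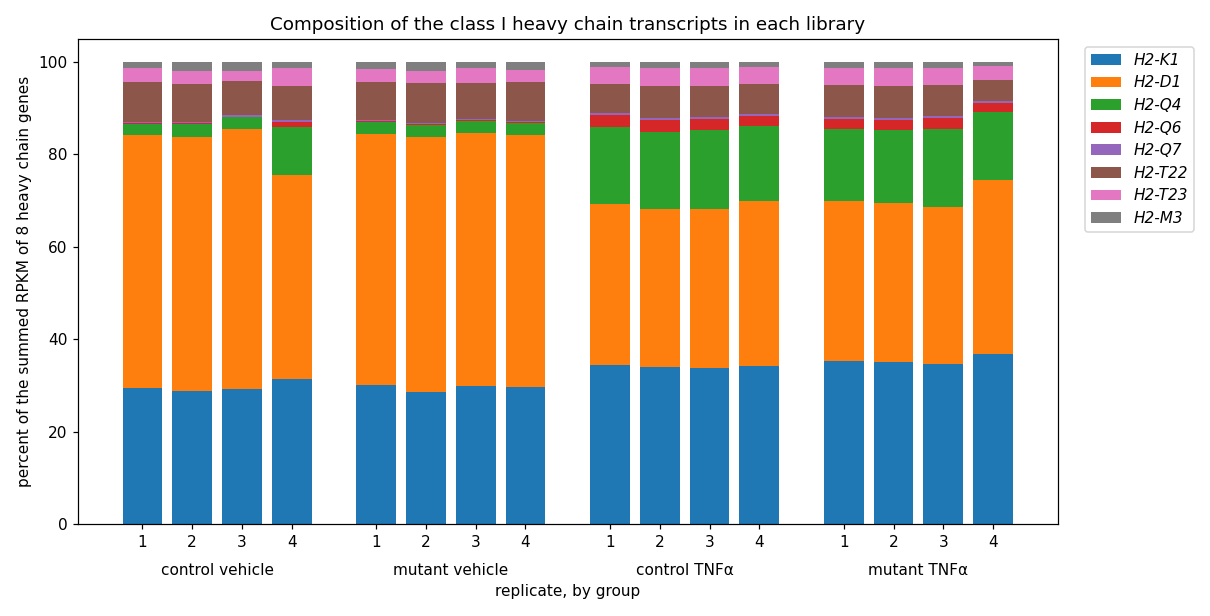
Each bar is a library, and its colours give the percent of the summed RPKM of 8 heavy chain genes held by each gene. H2-D1 holds 54.2% to 56.3% in the vehicle bars other than control replicate 4, where it holds 44.1%, and H2-Q4 widens with TNFα from 4.52% (2.55% without replicate 4) to 16.7% on average in control cells.

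No difference between the genotypes was called for any of the 10 genes. With vehicle, 0 of 10 were called by edgeR, where 10.5% of 19432 genes were called in either direction. None had an unadjusted p under 0.05, and DESeq2 called 0 of the 8 genes for which it gave an adjusted p. The log2 fold change of Notch2tm1.1Ecan against control ran from -2.19 (H2-Q6, 95% confidence interval -4.91 to 0.52) to -0.11 (B2m, -0.37 to 0.16), all below 0. Without control vehicle replicate 4 the 10 values ran from -0.23 to 0.13, with H2-K1 at 0.08 (-0.05 to 0.21), B2m at 0.01 (-0.11 to 0.12) and Nlrc5 at -0.02 (-0.43 to 0.38), and none was called.

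With TNFα, 0 of 10 were called by edgeR, against 9.94% of 19227 genes, and DESeq2 called 0 of 10. H2-Q6 and H2-Q7 had an unadjusted p under 0.05. H2-Q6 had a log2 fold change of -0.18 (-0.34 to -0.03, adjusted p = 0.146, edgeR), with 4 Notch2tm1.1Ecan libraries at 48.28 to 53.75 CPM beside control libraries at 64.06, 63.49, 60.92 and 49.18 CPM. Leaving out control TNFα replicate 4, the lowest control library, gave -0.28 (-0.41 to -0.14) with an adjusted p of 0.00413 (edgeR), so that call rested on whether this library was used. H2-Q7 lay in the other direction at 0.24 (0.01 to 0.47, adjusted p = 0.212, edgeR). The remaining 8 genes had log2 fold changes of -0.07 (Nlrc5, -0.23 to 0.09) to 0.12 (B2m, -0.03 to 0.26).

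The difference between the genotypes in the response to TNFα was tested as an interaction over all 16 libraries. It was called for 0 of 10 genes, against 0.474% of 21321 genes, and DESeq2 called 0 of the 8 genes with an adjusted p. H2-Q7 alone had an unadjusted p under 0.05, with an interaction of 0.84 on the log2 scale (0.20 to 1.49, adjusted p = 0.364, edgeR), and it was 0.30 (-0.26 to 0.86) without control vehicle replicate 4. The interaction of H2-Q6 was 1.97 (-0.07 to 4.01) with that library and -0.03 (-0.76 to 0.69) without it, and for Nlrc5 it was 0.81 (-0.33 to 1.96) and -0.08 (-0.46 to 0.30).

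Cell type markers differed between genotypes where these genes were not called. The 11 macrophage markers summed to 67.4 to 74.6 CPM in control and 127.2 to 148.6 CPM in Notch2tm1.1Ecan cells with vehicle, and to 78.2 to 93.8 and 165.1 to 189.7 CPM with TNFα, and 8 and 9 of the 11 were called higher in the mutant, or 9 with vehicle without control vehicle replicate 4. All 10 chondrocyte markers were called lower in Notch2tm1.1Ecan cells with either treatment. That count was 9 with vehicle without control vehicle replicate 4 and 8 with TNFα without Notch2tm1.1Ecan TNFα replicate 4. With TNFα against vehicle, 9 of the 10 were called lower in each genotype, or 10 in control cells without control TNFα replicate 4. Of the 11 macrophage markers, TNFα left 3 called higher and 1 lower in control cells, and 6 higher and 1 lower in Notch2tm1.1Ecan cells. The count of 3 was 2 without control vehicle replicate 4. The 5 endothelial markers summed to 6.52 to 8.75 and 15.2 to 19.4 CPM with vehicle and to 9.04 to 12.0 and 17.2 to 22.2 CPM with TNFα. Of these, 3 were called higher in the mutant with either treatment, or 2 with TNFα without control TNFα replicate 4. The 5 fibroblast markers summed to 25170 to 27850 CPM in control and 28280 to 30240 CPM in Notch2tm1.1Ecan cells with vehicle, and to 24030 to 26790 and 27850 to 33480 CPM with TNFα. Between genotypes 2 of them were called higher and 1 lower with vehicle, and 3 higher and 1 lower with TNFα. The latter counts were 4 higher and 1 lower without Notch2tm1.1Ecan TNFα replicate 4. Of the dendritic cell list Zbtb46 alone was called with TNFα, at 6.74 and 17.3 CPM with vehicle and TNFα in control and 6.30 and 16.5 CPM in Notch2tm1.1Ecan cells. Itgax was not called, Flt3 held at most 2 counts, and Xcr1 and Clec9a were at 0 in all libraries. The B cell list did not exceed 0.158 CPM, with Ms4a1 at 0. The part of these cells in the levels above was not tested.

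The partners of class I in peptide supply rose with TNFα together with the heavy chains. Of 13 genes of peptide loading and the immunoproteasome, 10 were called higher and 1 lower in each genotype, with a median log2 fold change of 2.78 in control and 3.23 in Notch2tm1.1Ecan cells. The immunoproteasome subunits Psmb9, Psmb8 and Psmb10, which replace the constitutive catalytic subunits, rose 19.7-, 18.5- and 11.4-fold in control and 57.9-, 55.4- and 18.4-fold in Notch2tm1.1Ecan cells. Without control vehicle replicate 4 the control values were 87.8-, 89.6- and 18.6-fold, so that those of Psmb9 and Psmb8 lay above and no longer below those of Notch2tm1.1Ecan cells. Psmb9 held 4 to 139 counts with vehicle in control and 10 to 42 in Notch2tm1.1Ecan libraries, so its fold values rest on few counts. The interaction without control vehicle replicate 4 called 0 of the 13 genes. Tap2, a subunit of the peptide transporter, rose 9.98-fold and 12.8-fold, or 16.2-fold in control cells without that library. Canx and Pdia3, chaperones of general glycoprotein folding, were not called, at -0.07 and -0.01 in control and -0.14 and -0.09 in Notch2tm1.1Ecan cells on the log2 scale, and Calr, the third of this kind, was called lower at -0.08 (adjusted p = 0.0449, edgeR) and -0.18 (adjusted p = 0.0151, edgeR). Without control vehicle replicate 4 the count in control cells was 10 higher and 0 lower, with a median of 3.16. Between genotypes, Calr alone was called with vehicle, at 0.17, and Tapbpl alone with TNFα, at -0.27. Without control vehicle replicate 4, Psmb8 was also called higher in Notch2tm1.1Ecan cells with vehicle, at 0.77 (adjusted p = 0.0219, edgeR), and Tapbpl lower, at -0.35 (adjusted p = 0.0162, edgeR).

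Of 19 regulators of class I transcription, 11 were called higher in each genotype, and 2 were called lower in control and 4 in Notch2tm1.1Ecan cells, with median log2 fold changes of 1.23 and 1.40. The count of 4 was 3 without Notch2tm1.1Ecan TNFα replicate 4. Irf1, which binds the interferon element, rose 9.72-fold and 17.9-fold, and Relb, a Rel family subunit, 8.91-fold and 12.4-fold. Stat2, a mediator of interferon signals, rose 6.78-fold and 8.99-fold. The control values of Irf1, Relb and Stat2 without control vehicle replicate 4 were 15.8-, 11.7- and 10.7-fold, and 3 regulators were called lower in place of 2. Nfyb and Nfyc, subunits of the factor that binds CCAAT, were lower in control cells, at -0.31 and -0.22 on the log2 scale. Their means fell in Notch2tm1.1Ecan cells too, from 23.2 to 17.0 CPM and from 42.9 to 35.6 CPM. Ciita, the class II counterpart of Nlrc5, was called higher at very low counts, 0 to 2 with vehicle and 2 to 14 with TNFα in control libraries, 0 and 1 to 10 in Notch2tm1.1Ecan libraries. Since it was at 0 in the latter group, a bound of 3 counts over the group puts it there at least 13-fold higher, and the median of the list was 1.40 with that bound too. With TNFα, Nfkb1, Rela and Irf2 were called higher in Notch2tm1.1Ecan than in control cells, by 1.25-, 1.20- and 1.16-fold, and no regulator was called with vehicle. Without control TNFα replicate 4, Irf2 was not called (adjusted p = 0.118, edgeR) and Irf9 was called lower, at -0.25 on the log2 scale (adjusted p = 0.00545, edgeR).

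**Figure D4:**
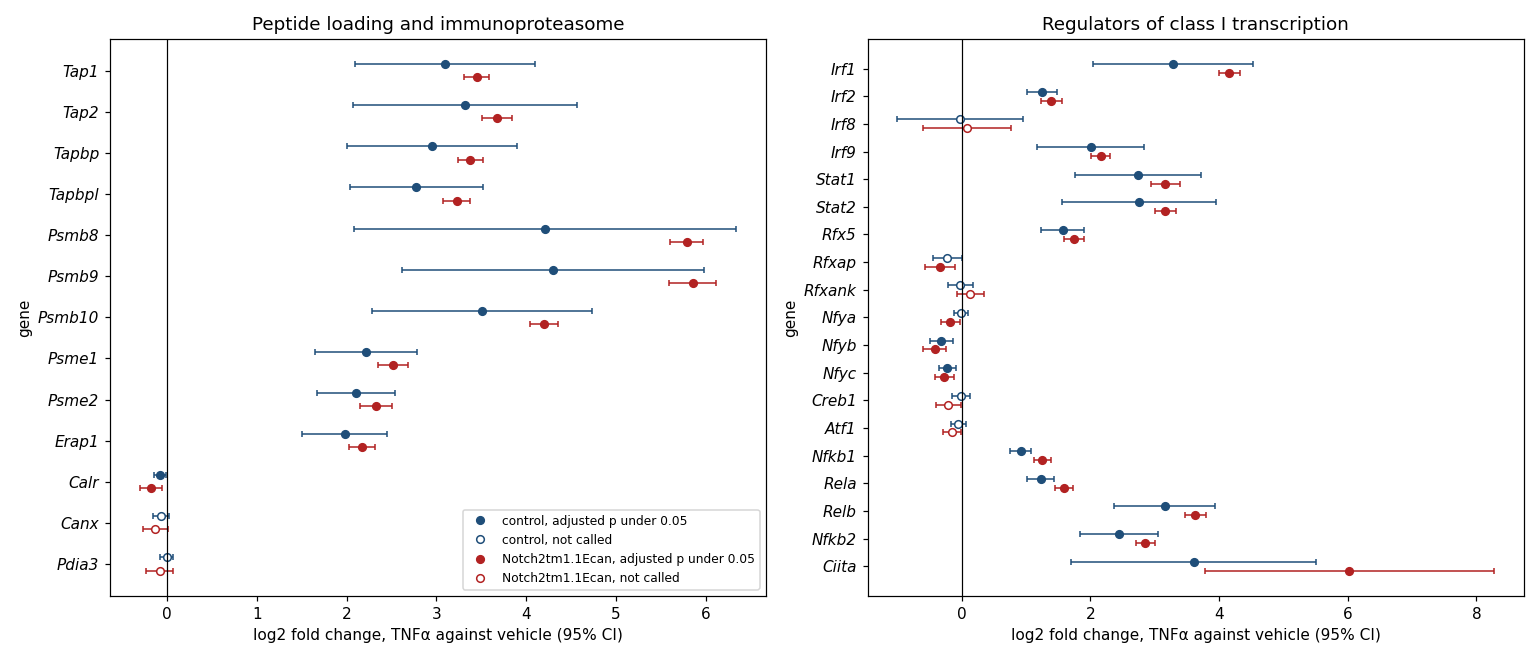
Points give the log2 fold change with TNFα against vehicle for 13 peptide loading genes and 19 regulators in control and Notch2tm1.1Ecan cells, with 95% confidence intervals from edgeR, and open points were not called. Psmb8 and Psmb9 lie farthest right on the left panel, and Calr, Canx and Pdia3 lie between -0.18 and -0.01. The fitted value of Ciita in Notch2tm1.1Ecan cells, all at 0 with vehicle, depends on the prior count.

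Of 24 other class I and class I-like genes listed, 23 had an identifier in the tables and 4 of these, H2-T3, H2-M1, H2-M9 and Mill1, were at 0 in all libraries. There were 16 that could be tested in control cells, of which 12 were called higher and 1 lower, and 15 in Notch2tm1.1Ecan cells, of which 13 were called higher and 1 lower, with median log2 fold changes of 0.96 and 1.00. H2-K2, a neighbour of H2-K1, rose 22.7-fold and 61.1-fold, H2-T10 9.77-fold and 22.7-fold and H2-T24 7.87-fold and 17.7-fold. These control values were 42.4-, 30.4- and 16.5-fold when control vehicle replicate 4 was left out. With vehicle H2-K2 held 3 to 22 counts in control and 0 to 10 in Notch2tm1.1Ecan libraries. H2-T10 held 0 to 27 and 2 to 9, and H2-T24 0 to 8 and 1 to 5, so these fold values rest on few counts. H2-M2 was at 0 to 4 counts with vehicle and 3 to 13 with TNFα in control libraries. In Notch2tm1.1Ecan libraries it was at 0 and at 4 to 23, or at least 40-fold higher against 3 counts over the group, and the median of the list with that bound was 1.00. Ulbp1, a stress ligand of the NKG2D receptor, fell by 0.66 and by 1.01 on the log2 scale. H60b, another such ligand, was called lower in Notch2tm1.1Ecan than in control cells, at -0.87 with vehicle and -0.82 with TNFα, and Procr and Hfe with vehicle, at -0.75 and -0.36. With TNFα, Procr was also called lower without control TNFα replicate 4, at -0.41 (adjusted p = 0.00272, edgeR), and Mill2 higher without Notch2tm1.1Ecan TNFα replicate 4, at 0.33 (adjusted p = 0.0355, edgeR).

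Of 10 class II genes 6 were tested, and 5 were called higher in each genotype, or 4 in control cells without control vehicle replicate 4. The levels were low, and the list summed to 6.26 to 13.0 CPM with vehicle and to 37.6 to 44.1 CPM with TNFα. Cd74, the invariant chain, was at 1.22 ± 2.16 CPM (SD, n = 4) with vehicle, with 4.46 CPM in the highest library, and at 25.7 ± 2.40 CPM with TNFα in control cells, an increase of 20.02-fold, or 164.3-fold without control vehicle replicate 4. Control vehicle counts of Cd74 began at 0, so the 164.3-fold value rests on counts near the floor. In Notch2tm1.1Ecan cells Cd74 was at 0.394 ± 0.123 CPM (SD, n = 4, 5 to 14 counts) with vehicle and 29.7 ± 2.44 CPM with TNFα. Of 12 interferon and interferon receptor genes, Ifng, Ifnk, Ifne, Ifnl2 and Ifnl3 were at 0 in all 16 libraries. In control cells 6 of the 7 tested were called higher and in Notch2tm1.1Ecan cells 5 of 6, with Ifngr2 at 3.67-fold and 3.71-fold and Il10rb at 2.49-fold and 3.15-fold. The count was 5 of 6 in control cells without control TNFα replicate 4. It was 6 of 6 in Notch2tm1.1Ecan cells without Notch2tm1.1Ecan TNFα replicate 4. Ifnb1 was at 0 or 1 count with vehicle and 2 to 7 counts with TNFα in control libraries, and at 0 and 0 to 3 counts in Notch2tm1.1Ecan libraries, so its level was at or near the floor. At these counts it was called higher in control cells without control vehicle replicate 4. The list held no Ifna gene. With TNFα, Ifnar2 and Ifngr1 were called higher in Notch2tm1.1Ecan than in control cells, at 0.41 and 0.32 on the log2 scale, and H2-Ab1 lower, at -0.69. Without control TNFα replicate 4, Ifnar2 was not called (adjusted p = 0.0909, edgeR) and Ifngr2 was called lower, at -0.19 (adjusted p = 0.0326, edgeR), and without control vehicle replicate 4 Ifngr1 was called higher with vehicle too, at 0.22 (adjusted p = 0.0234, edgeR). No gene of the 5 lists was called in the interaction.

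Over the 16 libraries, among 13431 genes with a mean of at least 1 CPM, the genes outside the set whose log2 CPM was most like that of Nlrc5 were Steap4, Parp10, Tmem140, Trim12a and Ripk2, with Pearson's r of 0.998, 0.998, 0.998, 0.998 and 0.998. For H2-K1 they were Nfkb2, Tap1, Znfx1, Ly6e and Parp12, with r of 0.999, 0.999, 0.998, 0.998 and 0.998. The libraries fall into a TNFα cluster and a vehicle cluster, and these values carry that split. As deviations from the group means, the nearest to Nlrc5 were Tmem140, Vcam1, Steap4, Slfn2 and Psmb9, at 0.995, 0.979, 0.972, 0.970 and 0.969, and the nearest to H2-K1 were Irf7, Ube2l6, Apol9a, Tlr2 and Tap1, at 0.984, 0.983, 0.982, 0.978 and 0.978. Within the set, the deviations of Nlrc5 had r of 0.965 with H2-Q6 and 0.937 with H2-Q4 but 0.556 with H2-M3 and 0.704 with B2m. Control vehicle replicate 4 is among the points of each of these values.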

How the data were processed

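Libraries were made with a stranded mRNA kit and sequenced as paired ends. The deposited files hold raw counts per Ensembl gene, made by the authors with htseq-count after alignment with HISAT2. The submitters' processing notes name HISAT2 2.1.0, SAMtools 1.9 and GRCm38, whereas the methods name a later HISAT2 release and GRCm39. The strand setting of the counting is not given in the sources used here. Entries that name no gene, 8.81% to 12.1% of each file, were left out. Groups came from the labels, which call the 4 libraries of a group biological replicates, and p-values measure the spread between these libraries. Counts were tested in edgeR 4.0.16 (R 4.3.3, limma 3.58.1) by quasi-likelihood with TMM scaling over all genes with at least 10 counts in the compared libraries, with Benjamini-Hochberg adjustment and a threshold of 0.05. The pairwise comparisons used the 8 libraries concerned and the interaction all 16. TMM-scaled CPM and, with GENCODE vM39 exon lengths (GRCm39), RPKM were computed for display. The uniqueness of exon windows was counted on both strands of GRCm39. Scripts were tested on simulated data. The members and gene lists were chosen with earlier results of these data known. All 10 members are named, and of each list at most 4 genes per comparison, those called with the largest change. Genes named beyond that, such as Calr, Canx, Pdia3, Nfyb, Nfyc, Ulbp1, Irf9 and Mill2, and those at 0, were chosen after their values were seen. The alternatives tried were RLE scaling, DESeq2 1.42.0, other filters on low counts, other call rules, the replicate number as a block, 1 fit over all libraries and leaving out libraries. The GAAANNGAAA motif, and the list values, levels and shares without replicate 4 of a control group or of Notch2tm1.1Ecan cells with TNFα, were added after the data were seen.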

Additional observations from a re-analysis of the deposited data

Results flagged for a closer look

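In each of the 40 sets of 4 libraries (10 genes in 4 groups), the gap between the most extreme library and its neighbour was set against the whole range by Dixon's criterion, and 8 sets passed it, where chance flags about 1 in 20. In 7 of them the library was control vehicle replicate 4, which stood apart above the other 3 with H2-K1 at 201.8, H2-D1 at 265.7, H2-Q4 at 73.62, H2-Q6 at 8.511, H2-Q7 at 3.214, B2m at 409.6 and Nlrc5 at 12.56 CPM. These 7 share 1 library and are not independent of each other. The remaining one was H2-T22 in Notch2tm1.1Ecan cells with vehicle, where replicate 1 was at 35.2 CPM and the other 3 at 30.66 to 30.99 CPM. No cause was tested for either.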

How the results depend on the processing

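TNFα called 10 of 10 genes higher in each genotype under every alternative run, except that DESeq2 gave an adjusted p for 8 of the 10 in control cells and called those 8. Leaving out any 1 library kept these counts at 10 to 10, and those of the genotype comparison with vehicle and of the interaction at 0 to 0. With TNFα, Notch2tm1.1Ecan against control ranged from 0 to 1 called, 1 (H2-Q6) without control TNFα replicate 4, and 1 with replicate 4 left out of every group, where H2-Q6 was at -0.25 (adjusted p = 0.00586, edgeR). No pairing by replicate number was seen. Deviations of same-numbered libraries correlated at -0.174 to 0.113 over genes, and those of other-numbered libraries at -0.154 to 0.138. The libraries that stand apart are among these, so the values do not settle whether cultures were paired. With the replicate number as a block the counts of members called stayed at 10, 10, 0, 0 and 0, while those over all genes were 8209, 8772, 2072, 1741 and 74.

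Sign changes touched only log2 differences between genotypes, or in the interaction, that were called under no alternative run. With vehicle, leaving replicate 4 out of every group gave 0.10 for H2-K1, 0.0626 for H2-D1, 0.126 for H2-Q4, 0.0981 for H2-T22, 0.20 for H2-T23 and 0.00883 for B2m. With TNFα the same step gave -0.0390 for H2-D1, 0.00450 for H2-T22, -0.0412 for H2-M3 and -0.00949 for B2m, while filterByExpr gave 0.000766 for H2-T23, the replicate block -0.0316 for H2-M3 and 1 fit over all 16 libraries -0.00575 for H2-M3. In the interaction, leaving out replicate 4 gave -0.0957 for H2-K1, -0.104 for H2-D1, -0.224 for H2-Q4, -0.0949 for H2-T22, -0.231 for H2-T23, -0.0207 for B2m and -0.0293 for Nlrc5.

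Leaving out 1 library at a time, the genotype difference with vehicle ran from -0.337 to 0.0770 for H2-K1, -0.177 to 0.0393 for H2-D1, -1.60 to 0.0932 for H2-Q4, -0.240 to 0.0817 for H2-T22, -0.560 to 0.128 for H2-T23 and -0.16 to 0.00694 for B2m. With TNFα it ran from -0.00629 to 0.0943 for H2-D1, -0.115 to 0.00321 for H2-Q4, -0.0980 to 0.0649 for H2-T22, -0.0838 to 0.0296 for H2-T23 and -0.0892 to 0.0552 for H2-M3. The interaction ran from -0.00675 to 0.428 for H2-K1, -0.00847 to 0.220 for H2-D1, -0.16 to 1.55 for H2-Q4, -0.0349 to 2.33 for H2-Q6, -0.135 to 0.21 for H2-T22, -0.162 to 0.557 for H2-T23, -0.00500 to 0.368 for H2-M3 and -0.0821 to 1.03 for Nlrc5. With 4 libraries a group, genotype differences inside the intervals given could not be seen. H2-Q6, H2-Q7, Ciita, Cd74, H2-K2, H2-T10, H2-T24, H2-M2, Ifnb1 and Psmb9 are further limited by low vehicle counts.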
